A study of Mus musculus with 2 samples.

Results

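Entpd1, Nt5e and Adora2a encode 3 consecutive steps of extracellular adenosine signalling, and their unique molecular identifier (UMI) counts were read from 2 single-cell libraries of lung CD4 T cells. The 3 genes were chosen by symbol, out of the 32285 genes in the deposited tables. They were followed in 508 cells, which are the barcodes that held 500 UMIs or more over 250 genes or more, with no more than 10% of their UMIs from mitochondrial genes. In the library from MARCH1-/- hosts 156 cells met this rule and in the library from WT hosts, of strain C57BL/6, 352 cells did. In both groups the cells came from WT donors sensitized to house dust mite extract, a common trigger of allergic asthma in mice, given on day 0 and again from day 7 to day 11. On day 14 lung CD4 T cells of the donors took up Cell Trace Violet, a dye that fades as cells divide, and were transferred into the hosts. The hosts were then challenged with the same extract, and the dye-low donor cells were sorted from their lungs on day 4 after the challenge. MARCH1, a ubiquitin ligase that removes MHC class II and CD86 from the surface of antigen-presenting cells, was missing from the hosts of one group only, never from the sorted cells. The comparison of hosts asks how the lack of MARCH1 around them alters these effector cells. There was 1 library per group and the sources used here do not give the number of animals behind it. Host and library therefore cannot be told apart, no test was possible, and every interval below covers counting error only, at a level of 95%.

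Cells release ATP when they are stressed or activated, and outside the cell ATP acts as a danger signal. Entpd1 encodes CD39, an ectoenzyme that cuts ATP and ADP down to AMP. Nt5e encodes CD73, a surface enzyme that turns AMP into adenosine. Adora2a encodes the A2A receptor, which binds adenosine and raises cAMP, and in T cells this signal lowers T cell receptor responses and cytokine output. Mouse regulatory T cells, marked by the transcription factor Foxp3, are known to carry both ectoenzymes on their surface.

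Entpd1 (ENSMUSG00000048120) is a protein-coding gene on the plus strand of chromosome 19, from 40612366 to 40741602. Nt5e (ENSMUSG00000032420) lies on the plus strand of chromosome 9, from 88327197 to 88372092. Adora2a (ENSMUSG00000020178) lies on the plus strand of chromosome 10, from 75316877 to 75334784. These positions are from the GENCODE annotation of GRCm38, in which no exon of the 3 genes overlaps an exon of another gene. Foxp3, used here to class cells, shares exon bases with Ppp1r3f, Gm36995 and Ccdc22 on the opposite strand. It shares others with Flicr on its own strand, so a few of its UMIs may belong to Flicr.

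The promoter windows below are shown because the A2A receptor signals through cAMP and because the ectoenzyme genes carry different motifs there. They are RefSeq sequences of build GRCm38.p6, plus strand, from 250 bases before to 50 bases after a transcription start. Capitals mark the cAMP half-site TGACG in the Entpd1 windows and the GC box GGGCGG in the Nt5e window, each read on the minus strand and so printed as its reverse complement.
Entpd1, chr19:40612116-40612415: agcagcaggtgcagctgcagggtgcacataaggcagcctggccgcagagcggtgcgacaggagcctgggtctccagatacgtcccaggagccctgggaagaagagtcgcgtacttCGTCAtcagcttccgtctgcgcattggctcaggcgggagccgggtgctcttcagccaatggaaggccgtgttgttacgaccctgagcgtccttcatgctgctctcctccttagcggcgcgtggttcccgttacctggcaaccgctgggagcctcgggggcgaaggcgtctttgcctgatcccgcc
Entpd1, second start, chr19:40659520-40659819: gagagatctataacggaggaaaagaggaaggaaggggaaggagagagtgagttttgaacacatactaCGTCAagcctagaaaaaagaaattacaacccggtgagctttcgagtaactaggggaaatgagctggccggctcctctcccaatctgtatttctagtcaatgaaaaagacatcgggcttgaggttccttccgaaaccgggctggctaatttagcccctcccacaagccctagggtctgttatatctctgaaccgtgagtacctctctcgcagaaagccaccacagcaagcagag
Nt5e, chr9:88327359-88327658: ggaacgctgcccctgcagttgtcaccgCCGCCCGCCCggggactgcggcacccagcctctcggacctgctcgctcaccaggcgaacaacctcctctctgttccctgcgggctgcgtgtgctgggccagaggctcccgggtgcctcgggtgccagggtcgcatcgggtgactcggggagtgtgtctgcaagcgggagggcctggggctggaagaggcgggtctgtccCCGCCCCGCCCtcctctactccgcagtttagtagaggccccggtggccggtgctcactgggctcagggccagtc
Each Entpd1 window held 1 half-site, at -135 to -131 from the first start and at -183 to -179 from the second. Of all 32817 RefSeq windows of this length, 20.8% held TGACG on either strand. All of the Nt5e window lies past the GENCODE start of the gene. It held 4 GC boxes and no TGACG. The boxes form 2 overlapping pairs, which begin at -223 and -219 and at -24 and -19, and 35.6% of all windows held at least 1. The hypoxia-response core ACGTG, the AP-1 site TGANTCA, the GATA core AGATAA and the STAT site TTCNNNGAA were searched on both strands too, and none was found in these 3 windows. Of all windows 19.6% held ACGTG, 7.81% TGANTCA, 11.2% AGATAA and 8.29% TTCNNNGAA. The GC content was 64.0% and 48.7% in the Entpd1 windows and 71.0% in the Nt5e window, against a median of 52.7% over all windows.

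The cells were deep, with a median of 8017 UMIs in the MARCH1-/- host library and 6086.5 UMIs in the WT host library, and no barcode of a cell was shared between them. They held 81.5% and 68.5% of the UMIs of their libraries, which were 1934068 UMIs for the MARCH1-/- host and 3753437 UMIs for the WT host. All 12 CD4 T cell markers were detected in both libraries, at a sum of 6236 and 4723 CPM, the UMIs of a gene per 1000000 UMIs of the cells. Natural killer cell markers had 0 UMIs, and Ms4a1, Cd8a, Csf1r and Adgre1 were at 0 in both libraries. Cd8b1, the other CD8 marker, had 16 UMIs in 13 cells of the MARCH1-/- host and 30 UMIs in 23 cells of the WT host. Of 6 B cell markers 4 were detected in each library, at a sum of 105 CPM in the MARCH1-/- host and 22.9 CPM in the WT host, nearly all of it Ighm. Pecam1, an adhesion molecule of endothelium and of some leukocytes, was the main gene of the epithelial and endothelial list, with 75 of its 82 UMIs in the MARCH1-/- host and 105 of its 126 UMIs in the WT host. Of 12 macrophage and monocyte markers 5 were detected in the MARCH1-/- host, at 20.3 CPM in all, and 3 in the WT host, at 17.5 CPM. Cells with at least 2 UMIs of markers of B, CD8, myeloid, natural killer, epithelial or endothelial cells, called other-type markers here, numbered 48 of 156 in the MARCH1-/- host and 59 of 352 in the WT host.

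Summed over all cells and scaled to CPM, Entpd1 and Nt5e were lower in the library from MARCH1-/- hosts, and Adora2a was higher there. Entpd1 had 45 UMIs in the MARCH1-/- host library, or 28.6 CPM (20.8 to 38.2), and 125 UMIs in the WT host library, or 48.6 CPM (40.5 to 57.9). The log2 ratio, MARCH1-/- host over WT, was -0.77 (-1.29 to -0.27), which is a 1.70-fold higher level in the WT host. Among the 6762 genes with at least 50 UMIs, 8.30% were lower by more than 1.5-fold in the MARCH1-/- host library and 25.6% were higher, and the median gene had a log2 ratio of 0.25. Relative to that median the log2 ratios of Entpd1, Nt5e and Adora2a were -1.02, -0.69 and 0.56.
Nt5e, the enzyme of the next step, had 180 UMIs in the MARCH1-/- host library, or 114 CPM (98.2 to 132), against 399 UMIs in the WT host library, or 155 CPM (140.3 to 171). Its log2 ratio was -0.44 (-0.70 to -0.18), a 1.36-fold higher level in the WT host that did not pass 1.5-fold.
Adora2a, the receptor, had 28 UMIs in the MARCH1-/- host library, or 17.8 CPM (11.8 to 25.7), against 26 UMIs in the WT host library, or 10.1 CPM (6.61 to 14.8). Its log2 ratio of 0.81 (-0.01 to 1.64), or 1.76-fold, had an interval that reached no difference, and it passed 1.5-fold together with the 25.6% of genes given above. The Adora2a log2 ratio was 1.33 (0.25 to 2.46) among cells above the median depth of their library and -0.0057 (-1.48 to 1.37) among those at or below it, and after each cell was thinned to 1000 UMIs it was 2.71, from few UMIs. Foxp3 itself was at 35.5 CPM in the MARCH1-/- host and 37.3 CPM in the WT host.

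The Entpd1 difference rested in part on which cells were kept. Without the cells that held at least 2 UMIs of other-type markers, its log2 ratio was -0.18 (-0.76 to 0.38), against -0.77 over all cells. Those cells had Entpd1 at 11.3 CPM in the MARCH1-/- host library and 62.3 CPM in the WT host library, while the remaining cells had 39.9 CPM and 45.1 CPM. Of the cells left out, 35 of 48 and 31 of 59 had at least 2 UMIs of Ighm and Pecam1 together, and whether these markers have a part in the Entpd1 difference was not tested. The log2 ratio was -1.09 (-1.76 to -0.46) among cells above the median depth of their library and -0.0896 (-1.01 to 0.79) among those at or below it. Without cells with a UMI of Mki67 or Top2a, genes of dividing cells, it was -0.45 (-1.30 to 0.33), short of 1.5-fold. The Nt5e difference kept its direction under each of the 11 alternatives, from -0.69 to -0.24, and the interval of the last, after thinning, included no difference (-0.86 to 0.36). Each of the 11 was computed from CPM, and only thinning brought the cells of both hosts to the same depth. The depth classes were cut at the median of each library, 8017 UMIs in the MARCH1-/- host and 6086.5 UMIs in the WT host. Counted per cell, Nt5e had 180 UMIs in 156 MARCH1-/- host cells and 399 UMIs in 352 WT host cells. After thinning it was seen in 17.3% and 17.0% of cells. The kept direction therefore does not set depth aside.

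**Figure D1:**
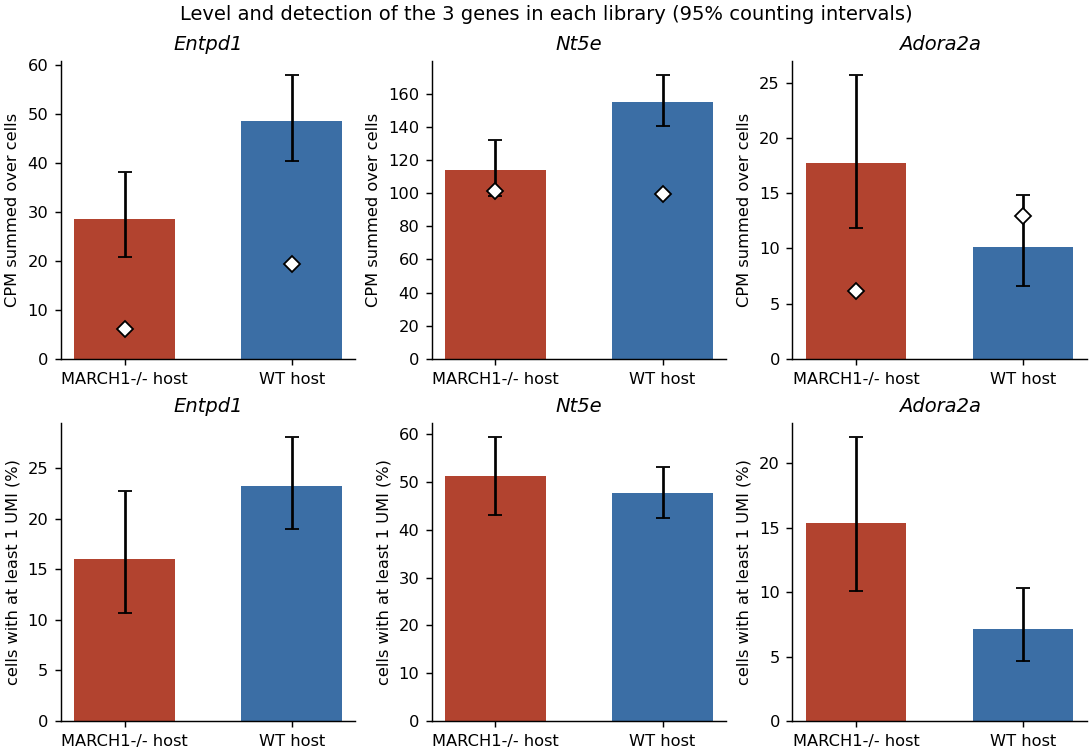
Level in CPM (upper row) and share of cells with at least 1 UMI (lower row) of Entpd1, Nt5e and Adora2a, with the MARCH1-/- host library on the left of each panel and the WT host library on the right; bars are the values, error bars the 95% counting intervals, and diamonds the CPM in barcodes of 1 to 100 UMIs. Entpd1 stands at 28.6 CPM in the MARCH1-/- host and 48.6 CPM in the WT host, while the Adora2a bars show 17.8 and 10.1 CPM.

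At the level of single cells, Entpd1 was seen in 25 of 156 cells (16.0%, 10.6 to 22.7) from the MARCH1-/- host and in 82 of 352 cells (23.3%, 19.0 to 28.1) from the WT host. Nt5e was seen in 80 cells (51.3%, 43.2 to 59.4) from the MARCH1-/- host and in 168 cells (47.7%, 42.4 to 53.1) from the WT host. Adora2a was seen in 24 cells (15.4%, 10.1 to 22.0) from the MARCH1-/- host and in 25 cells (7.10%, 4.65 to 10.3) from the WT host. Because deeper cells show more genes, each cell was also thinned to 1000 UMIs, which left out 0 shallower cells of the MARCH1-/- host and 11 of the WT host. After thinning, Entpd1 was seen in 2.56% of MARCH1-/- host cells and 5.57% of WT host cells. Nt5e was then seen in 17.3% of MARCH1-/- host cells and 17.0% of WT host cells, and Adora2a in 3.85% and 0.587% of them. Over all possible draws the expected Adora2a share was 1.94% in the MARCH1-/- host and 1.38% in the WT host, which is a smaller gap than in the single draw.
Barcodes of 1 to 100 UMIs, which hold mainly free RNA, had Entpd1 at 6.12 CPM in the MARCH1-/- host library and 19.4 CPM in the WT host library, both below the cells. They had Nt5e at 101 CPM (69.6 to 142) and 99.5 CPM (81.7 to 120). The first of these intervals overlapped that of the MARCH1-/- host cells. Adora2a in these barcodes was at 6.12 CPM and 12.9 CPM, the last of these above the cells of the WT host. If 10% of a cell thinned to 1000 UMIs were free RNA, Nt5e would be seen in 1.01% of MARCH1-/- host cells and 0.991% of WT host cells from that source alone. The 10% was assumed and not measured, and the part of free RNA in the shares above was not tested. Every cell here was sorted as a CD4 T cell, so no cell type that should lack the genes was at hand for comparison.

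The UMIs were spread over many cells. For Nt5e, 26 cells of the MARCH1-/- host and 53 cells of the WT host held at least 3 UMIs, and the highest cell held 7 UMIs in the MARCH1-/- host and 13 UMIs in the WT host. For Entpd1, 6 cells of the MARCH1-/- host and 10 cells of the WT host held at least 3 UMIs, and the highest cells held 4 and 8 UMIs. Adora2a came as a single UMI in 21 of its 24 cells in the MARCH1-/- host and in 24 of its 25 cells in the WT host, near the limit of detection.
Nt5e did not scale with the depth of a cell. Cells above and cells at or below the median depth held 91 and 89 of its UMIs in the MARCH1-/- host library, and 208 and 191 in the WT host library. Its level was therefore 77.6 CPM in deep and 221 CPM in shallow cells of the MARCH1-/- host, and 108 CPM and 293 CPM in those of the WT host. At a median of 8017 against 6086.5 UMIs, the MARCH1-/- host cells were the deeper ones. Nt5e was seen in 51.3% of them and in 47.7% of WT host cells, and the part of depth in its host ratio was not tested. Entpd1 was at 23.0 CPM in deep and 44.7 CPM in shallow cells of the MARCH1-/- host, but at 49.0 CPM and 47.5 CPM in the WT host.

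**Figure D2:**
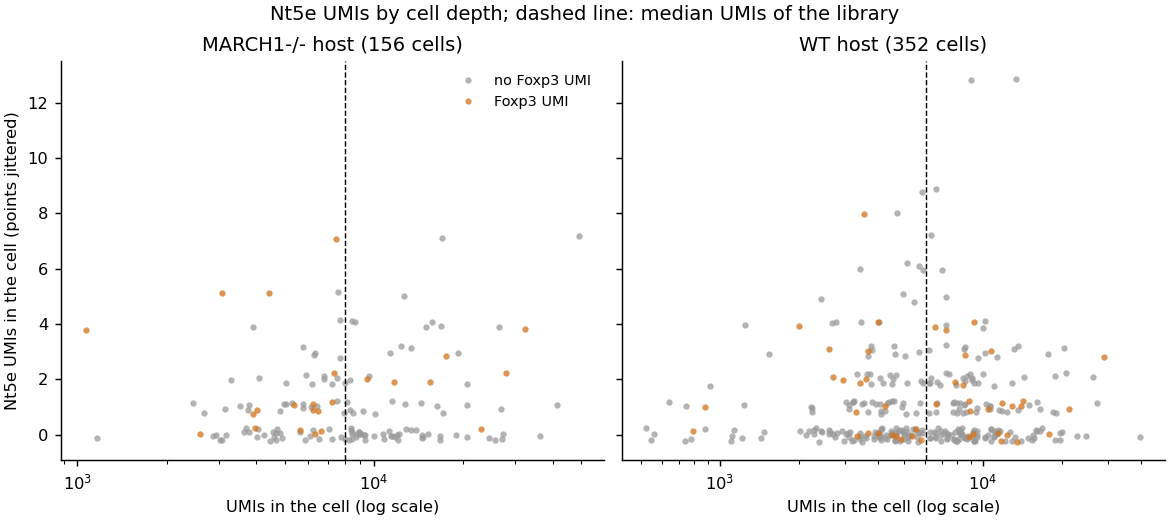
Nt5e UMIs of each cell (y axis, points moved slightly at random) against all UMIs of that cell (x axis, log scale) in the MARCH1-/- host (left, 156 cells) and the WT host (right, 352 cells); orange points are cells with a Foxp3 UMI and the dashed line is the median depth. Cells with several Nt5e UMIs stand on both sides of the median, with the highest at 7 UMIs in the MARCH1-/- host and 13 UMIs in the WT host.

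Foxp3-positive cells, taken as those with at least 1 Foxp3 UMI, numbered 24 in the MARCH1-/- host library and 46 in the WT host library. Their median depth was 6400.5 UMIs against 8345 UMIs for the other cells in the MARCH1-/- host, and 6596.5 UMIs against 5925.5 UMIs in the WT host. A single Foxp3 UMI placed 10 of these cells in the MARCH1-/- host and 22 in the WT host. Foxp3 in barcodes of 1 to 100 UMIs was at 27.6 CPM (12.6 to 52.3) in the MARCH1-/- host and 52.5 CPM (39.8 to 68.1) in the WT host, against 35.5 CPM and 37.3 CPM in the cells, and the part of free RNA in the class was not tested. The class carried other genes of regulatory T cells, which checks it. Itgae, the integrin subunit CD103, was 16.2-fold higher in Foxp3-positive than in other cells of the MARCH1-/- host and 36.8-fold higher in those of the WT host. Ikzf2, the transcription factor Helios, was 3.42-fold and 4.09-fold higher, and Ctla4, an inhibitory receptor, 2.10-fold and 2.26-fold higher. Of the regulatory T cell list without Foxp3, 13 of 16 genes were higher in Foxp3-positive cells of the MARCH1-/- host (median log2 ratio 0.93) and 12 of 16 in those of the WT host (0.64). Over all genes with at least 10 UMIs, 49.6% and 49.5% were higher. Nrp1, a surface receptor often used for thymus-derived regulatory T cells, was at -0.67 and -1.38 in the same contrasts.

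Entpd1 was higher in Foxp3-positive cells of both libraries, while Nt5e was 1.995-fold higher in those of the MARCH1-/- host and 1.24-fold higher in those of the WT host. In the MARCH1-/- host library Entpd1 had 11 UMIs in Foxp3-positive cells, or 48.8 CPM, against 34 UMIs in the other cells, or 25.2 CPM, a log2 ratio of 0.95 (-0.18 to 1.97). In the WT host library it had 34 UMIs in Foxp3-positive cells, or 94.3 CPM, against 91 UMIs in the other cells, or 41.2 CPM, a log2 ratio of 1.20 (0.58 to 1.78). Its interval in the MARCH1-/- host thus included no difference and that in the WT host did not. Entpd1 passed 1.5-fold in both libraries, as did 13.0% of 6860 genes in the MARCH1-/- host and 11.7% of 7625 genes in the WT host with at least 20 UMIs.
In the MARCH1-/- host library Nt5e had 45 UMIs in Foxp3-positive cells, or 199.5 CPM, against 135 UMIs in the other cells, or 99.997 CPM, a log2 ratio of 0.997 (0.48 to 1.49). In the WT host library it had 67 UMIs in Foxp3-positive cells, or 186 CPM, against 332 UMIs in the other cells, or 150.2 CPM, a log2 ratio of 0.31 (-0.09 to 0.69). Adora2a had 2 UMIs in Foxp3-positive and 26 in other cells of the MARCH1-/- host, and 3 and 23 UMIs in those of the WT host, too few to place it. In this contrast 20.2% of genes in the MARCH1-/- host and 19.1% in the WT host were lower by more than 1.5-fold.

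The Entpd1 contrast in the MARCH1-/- host library depended on depth. Its 7 Foxp3-positive cells above the median depth held 1 Entpd1 UMI, a log2 ratio of -1.79 to the other deep cells, and the 17 at or below the median held 10, a log2 ratio of 2.16. In the WT host library both depth classes had more Entpd1 in Foxp3-positive cells, at 96.0 CPM against 40.9 CPM among deep and 88.1 CPM against 41.9 CPM among shallow cells. For Nt5e the level was higher in Foxp3-positive cells in each library and each depth class, and in the MARCH1-/- host library it stood at 109 against 73.4 CPM among deep and 341 against 187 CPM among shallow cells. In the WT host library Nt5e stood at 121 against 106 CPM among deep and 415 against 276 CPM among shallow cells. Its log2 ratios among deep cells were 0.57 (-0.33 to 1.38) in the MARCH1-/- host and 0.19 (-0.39 to 0.72) in the WT host. Both intervals included no difference. Cells with at least 2 Foxp3 UMIs had Entpd1 at 47.8 CPM in the MARCH1-/- host and 115 CPM in the WT host. Those with exactly 1 had 51.5 CPM and 68.3 CPM. Nt5e in cells with at least 2 Foxp3 UMIs was at 161 CPM in the MARCH1-/- host and 210 CPM in the WT host. With exactly 1 it was at 309 CPM and 155 CPM. The 10 MARCH1-/- host cells with exactly 1 had a median depth of 4006.5 UMIs, against 6571.5 UMIs for those with at least 2.
Without cells that held Mki67 or Top2a the Foxp3 log2 ratio in the WT host was 1.99 for Entpd1 and 0.78 for Nt5e. Without cells with other-type markers, that of Nt5e in the MARCH1-/- host was 2.06.

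Set between hosts within each class, Nt5e stood at 199.5 CPM in Foxp3-positive cells of the MARCH1-/- host and 186 CPM in those of the WT host, a log2 ratio of 0.10 (-0.48 to 0.67). In Foxp3-negative cells it stood at 99.997 CPM in the MARCH1-/- host and 150.2 CPM in the WT host, a log2 ratio of -0.59 (-0.89 to -0.29). The interval in Foxp3-negative cells lay below 0 and that in Foxp3-positive cells held 0, and the difference between the classes was not tested. Foxp3-negative cells had a median depth of 8345 UMIs in the MARCH1-/- host and 5925.5 UMIs in the WT host. For Foxp3-positive cells it was 6400.5 and 6596.5 UMIs, and the part of depth in these ratios was not tested. Entpd1 was lower in the MARCH1-/- host in both classes, with log2 ratios of -0.95 (-2.08 to 0.06) in Foxp3-positive and -0.71 (-1.32 to -0.13) in Foxp3-negative cells. Adora2a had 26 UMIs in Foxp3-negative cells of the MARCH1-/- host, or 19.3 CPM, and 23 UMIs in those of the WT host, or 10.4 CPM, a log2 ratio of 0.89 (0.02 to 1.76).

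CD39 and CD73 act in sequence, and a cell that carries both can take ATP through to adenosine on its own surface. UMIs of both enzymes were found in 16 cells of the MARCH1-/- host (10.3%, 5.98 to 16.1) and in 44 cells of the WT host (12.5%, 9.23 to 16.4). Nt5e was seen in 16 of 25 Entpd1-positive cells (64.0%) and in 64 of 131 Entpd1-negative cells (48.9%) of the MARCH1-/- host, a difference of 15.1 percentage points (-8.10 to 35.2). Among WT host cells it was seen in 44 of 82 Entpd1-positive cells (53.7%) and in 124 of 270 Entpd1-negative cells (45.9%), a difference of 7.73 points (-5.18 to 20.4). Both intervals included no difference. Entpd1-positive cells were also the deeper ones, with a median of 9175 against 7674 UMIs in the MARCH1-/- host and 7963 against 5615 UMIs in the WT host.
The CPM scale does not set depth aside here, since Nt5e CPM was lower in deep than in shallow cells of both libraries. On this scale Nt5e was at 138 CPM in Entpd1-positive and 108 CPM in Entpd1-negative cells of the MARCH1-/- host, a log2 ratio of 0.35 (-0.18 to 0.85). It was at 149 CPM and 158 CPM in those of the WT host, a log2 ratio of -0.08 (-0.41 to 0.24). The direction in the WT host was not stable, since among cells at or below the median depth the log2 ratio was 0.42.

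Most cells showed either no member or a single one. No member was detected in 59 cells of the MARCH1-/- host (37.8%) and 138 cells of the WT host (39.2%). Nt5e alone was detected in 53 and 115 cells, Entpd1 alone in 7 and 34, and Adora2a alone in 8 and 8. All 3 genes were detected in 3 cells of the MARCH1-/- host and 4 cells of the WT host. Nt5e and Adora2a without Entpd1 were detected in 11 cells of the MARCH1-/- host (7.05%) and 9 cells of the WT host (2.56%).
Among Foxp3-positive cells, both ectoenzymes were detected in 5 of 24 in the MARCH1-/- host (20.8%, 7.13 to 42.2) and in 12 of 46 in the WT host (26.1%, 14.3 to 41.1). Among other cells they were detected in 11 of 132 in the MARCH1-/- host (8.33%, 4.23 to 14.4) and in 32 of 306 in the WT host (10.5%, 7.26 to 14.4). Each ectoenzyme by itself was also seen in a larger share of Foxp3-positive than of other cells. For Entpd1 the shares were 25% against 14.4% in the MARCH1-/- host and 41.3% against 20.6% in the WT host. For Nt5e they were 75% against 47.0% and 63.0% against 45.4%. Whether the 2 genes met more often than these shares give was not tested. The cells with both ectoenzymes were still mostly Foxp3-negative, with a Foxp3 UMI in 5 of 16 of them in the MARCH1-/- host and in 12 of 44 in the WT host. A Foxp3-positive cell can be missed where its few Foxp3 UMIs went uncaptured, and another cell can be counted as one through a Foxp3 UMI of free RNA.

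**Figure D3:**
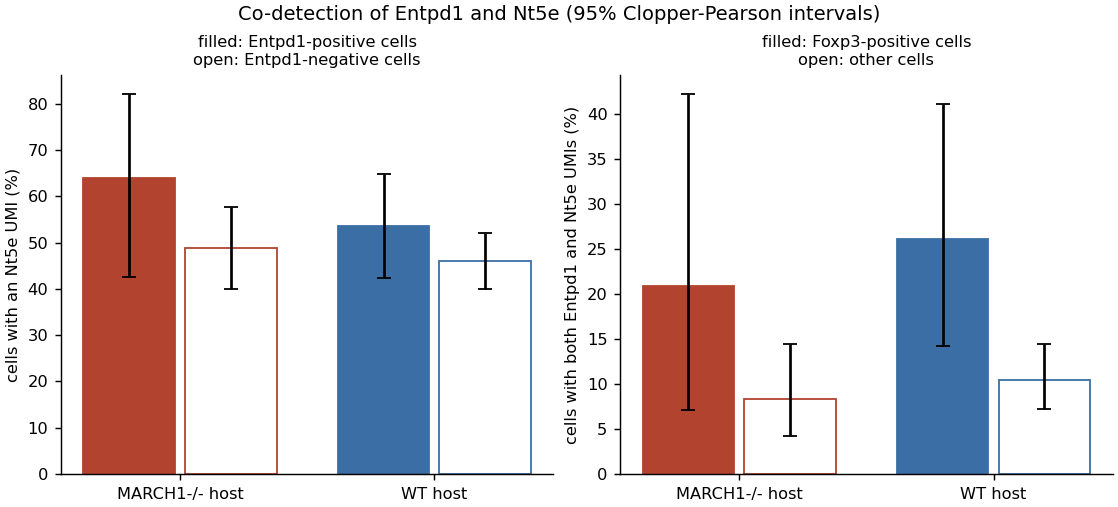
Left, share of cells with an Nt5e UMI among Entpd1-positive (filled) and Entpd1-negative (open) cells; right, share of cells with UMIs of both Entpd1 and Nt5e among Foxp3-positive (filled) and other (open) cells; red is the MARCH1-/- host, blue the WT host, and error bars are 95% Clopper-Pearson intervals. Cells with both enzymes made up 20.8% of Foxp3-positive and 8.33% of other cells in the MARCH1-/- host, and 26.1% and 10.5% in the WT host.

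The 3 genes were then followed over 7 overlapping classes of cells, each defined by a UMI of 1 to 3 genes. These classes rest on what was captured and are not cell types. Entpd1 and Nt5e were ordered differently across them, as the classes of Il10 and of Il17a show.
Entpd1 was higher in cells with a UMI of Il10, the anti-inflammatory cytokine. In the MARCH1-/- host it had 25 UMIs in the 32 Il10-positive cells, or 66.9 CPM, against 20 UMIs in the other 124 cells, or 16.6 CPM, a log2 ratio of 2.01 (1.10 to 2.93). Cells of the WT host held 46 Entpd1 UMIs in the 71 Il10-positive cells, or 70.0 CPM, against 79 UMIs in the other 281 cells, or 41.3 CPM, a log2 ratio of 0.76 (0.21 to 1.31). In this contrast 10.6% of genes in the MARCH1-/- host and 9.72% in the WT host were higher by more than 1.5-fold. The Il10-positive cells held 55.6% of all Entpd1 UMIs in the MARCH1-/- host library and 36.8% in the WT host library, with 23.7% and 25.5% of all UMIs.
Between hosts, Entpd1 in Il10-positive cells had a log2 ratio of -0.07 (-0.83 to 0.67). In Il10-negative cells it was at 16.6 CPM in the MARCH1-/- host and 41.3 CPM in the WT host, a log2 ratio of -1.31 (-2.10 to -0.59). The difference between these was not tested.
The Foxp3 and Il10 classes overlapped in part. Il10 was seen in 9 of the 24 Foxp3-positive cells of the MARCH1-/- host, and in 20.5% of all its cells. It was seen in 21 of the 46 Foxp3-positive cells of the WT host, and in 20.2% of all its cells. In the MARCH1-/- host Entpd1 was at 134 CPM in the 9 cells with both, at 12.6 CPM in the 15 cells with Foxp3 alone, at 52.2 CPM in the 23 with Il10 alone and at 17.3 CPM in the 109 with neither. For the WT host it was at 103 CPM in the 21 cells with both, 87.5 CPM in the 25 with Foxp3 alone, 59.8 CPM in the 50 with Il10 alone and 35.7 CPM in the 256 with neither. Cells with neither had the lowest level in the WT host, whereas among MARCH1-/- host cells those with Foxp3 alone, from 2 UMIs, were lower still.

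Nt5e was higher in cells with a UMI of Il17a, the type 17 cytokine. In the MARCH1-/- host it had 34 UMIs in the 12 Il17a-positive cells, or 219 CPM, against 146 UMIs in the others, or 103 CPM, a log2 ratio of 1.09 (0.51 to 1.64). The WT host library had 71 Nt5e UMIs in the 45 Il17a-positive cells, or 225 CPM, against 328 UMIs in the others, or 145 CPM, a log2 ratio of 0.63 (0.24 to 1.002). In this contrast 16.9% of genes in the MARCH1-/- host and 14.2% in the WT host were higher by more than 1.5-fold. Nt5e was seen in 11 of the 12 cells of the MARCH1-/- host and in 29 of the 45 cells of the WT host.
Il17a and Foxp3 were seen together in 0 cells of the MARCH1-/- host and 2 cells of the WT host. Over all cells, Il17a was seen in 7.69% and 12.8% of those of the 2 hosts and Foxp3 in 15.4% and 13.1%. Whether they met less often than these shares give was not tested. In cells with neither, Nt5e was at 84.5 CPM in the MARCH1-/- host and 138 CPM in the WT host. The Il17a contrast of Nt5e in the WT host rested in part on 1 cell. Without the cell with the most Nt5e UMIs of its library, the log2 ratio was 0.38 (-0.05 to 0.78), short of 1.5-fold. It was 0.41 (-0.07 to 0.86) without cells with a UMI of Mki67 or Top2a and 0.40 (-0.08 to 0.85) without cells with other-type markers. In the MARCH1-/- host it was 1.31 (0.66 to 1.90) without the top cell, 0.53 (-0.27 to 1.25) without cells with other-type markers and 0.26 (-2.09 to 1.95) after thinning to 1000 UMIs.
Entpd1 had 0 UMIs in the Il17a-positive cells of the MARCH1-/- host, which allows a level of up to 23.7 CPM, against 31.7 CPM in the others. In the WT host it had 11 UMIs in them, or 34.8 CPM, against 50.6 CPM in the others, a log2 ratio of -0.54 (-1.58 to 0.36). In this contrast 20.3% of genes in the MARCH1-/- host and 16.9% in the WT host were lower by more than 1.5-fold.

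On the CPM scale both ectoenzymes were lower in cells with a UMI of Mki67 or Top2a. Nt5e was at 98.2 CPM in these cells and 162 CPM in the others of the MARCH1-/- host, a log2 ratio of -0.72 (-1.17 to -0.26). It was at 100.3 CPM and 249 CPM in those of the WT host, a log2 ratio of -1.31 (-1.61 to -1.02), and 17.3% of genes in the MARCH1-/- host and 12.4% in the WT host were lower by more than 1.5-fold. Cells of this class were deeper, with a median of 10092 against 6148 UMIs in the MARCH1-/- host and 8526 against 4595 UMIs in the WT host, and the part of depth in the contrast was not tested. Among cells at or below the median depth the Nt5e log2 ratio was 0.12 in the MARCH1-/- host and -1.01 in the WT host.
Entpd1 was at 22.9 CPM in the class and 45.6 CPM in the others of the MARCH1-/- host, a log2 ratio of -0.995 (-1.91 to -0.05). It was at 40.6 CPM and 62.3 CPM in those of the WT host, a log2 ratio of -0.62 (-1.15 to -0.09). By share of cells, Entpd1 was seen in 16.1% of the class and 15.9% of the others in the MARCH1-/- host. In the WT host it was seen in 26.2% and 20.7%. Nt5e was seen in 52.7% and 49.2% in the MARCH1-/- host and in 46.4% and 48.9% in the WT host. The part of depth in the Entpd1 contrast was not tested either.

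In cells with a UMI of the type 2 cytokine genes Il4, Il5 or Il13, Nt5e was lower over all cells and Entpd1 was not. Nt5e was at 69.7 CPM in these cells and 150.1 CPM in the others of the MARCH1-/- host, a log2 ratio of -1.11 (-1.61 to -0.62), where 13.2% of genes were lower by more than 1.5-fold. It was at 129 CPM and 179 CPM in those of the WT host, a log2 ratio of -0.47 (-0.76 to -0.17), short of 1.5-fold. These cells too were deeper, with medians of 10009 against 6430 UMIs and 7987 against 4828 UMIs. Thinned to 1000 UMIs the WT host value was 0.20 and among cells at or below the median depth it was 0.16, so its direction turned. The MARCH1-/- host value was -0.41 among cells at or below the median depth.
Entpd1 had log2 ratios of 0.25 (-0.66 to 1.16) in the MARCH1-/- host and 0.32 (-0.21 to 0.85) in the WT host for the same class.

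Cells with a UMI of Pdcd1, the gene of the inhibitory receptor PD-1, had Nt5e at 119 CPM against 105 CPM in the MARCH1-/- host and 167 CPM against 136 CPM in the WT host.
Adora2a was at 9.96 CPM in Pdcd1-positive and 31.5 CPM in Pdcd1-negative cells of the MARCH1-/- host, a log2 ratio of -1.66 (-2.94 to -0.47) from 10 and 18 UMIs. In the WT host it was at 8.83 CPM and 12.2 CPM. Cells with a UMI of Ifng, the type 1 cytokine, held 5 Adora2a UMIs in the MARCH1-/- host, in 3 of 11 cells, and 4 UMIs in the WT host.

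Put in order, Entpd1 in the MARCH1-/- host was highest in Il10-positive cells (66.9 CPM), then in Foxp3-positive (48.8 CPM) and Pdcd1-positive cells (33.9 CPM), neighbours whose intervals overlapped. In the WT host the order began with Foxp3-positive cells (94.3 CPM), Il10-positive cells (70.0 CPM) and those with type 2 cytokines (54.2 CPM), again with overlapping intervals. Nt5e was highest in Il17a-positive cells and second in Foxp3-positive cells in both libraries, and the intervals of these neighbours overlapped. It was lowest in the type 2 cytokine class of the MARCH1-/- host and in the Mki67 or Top2a class of the WT host.

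**Figure D4:**
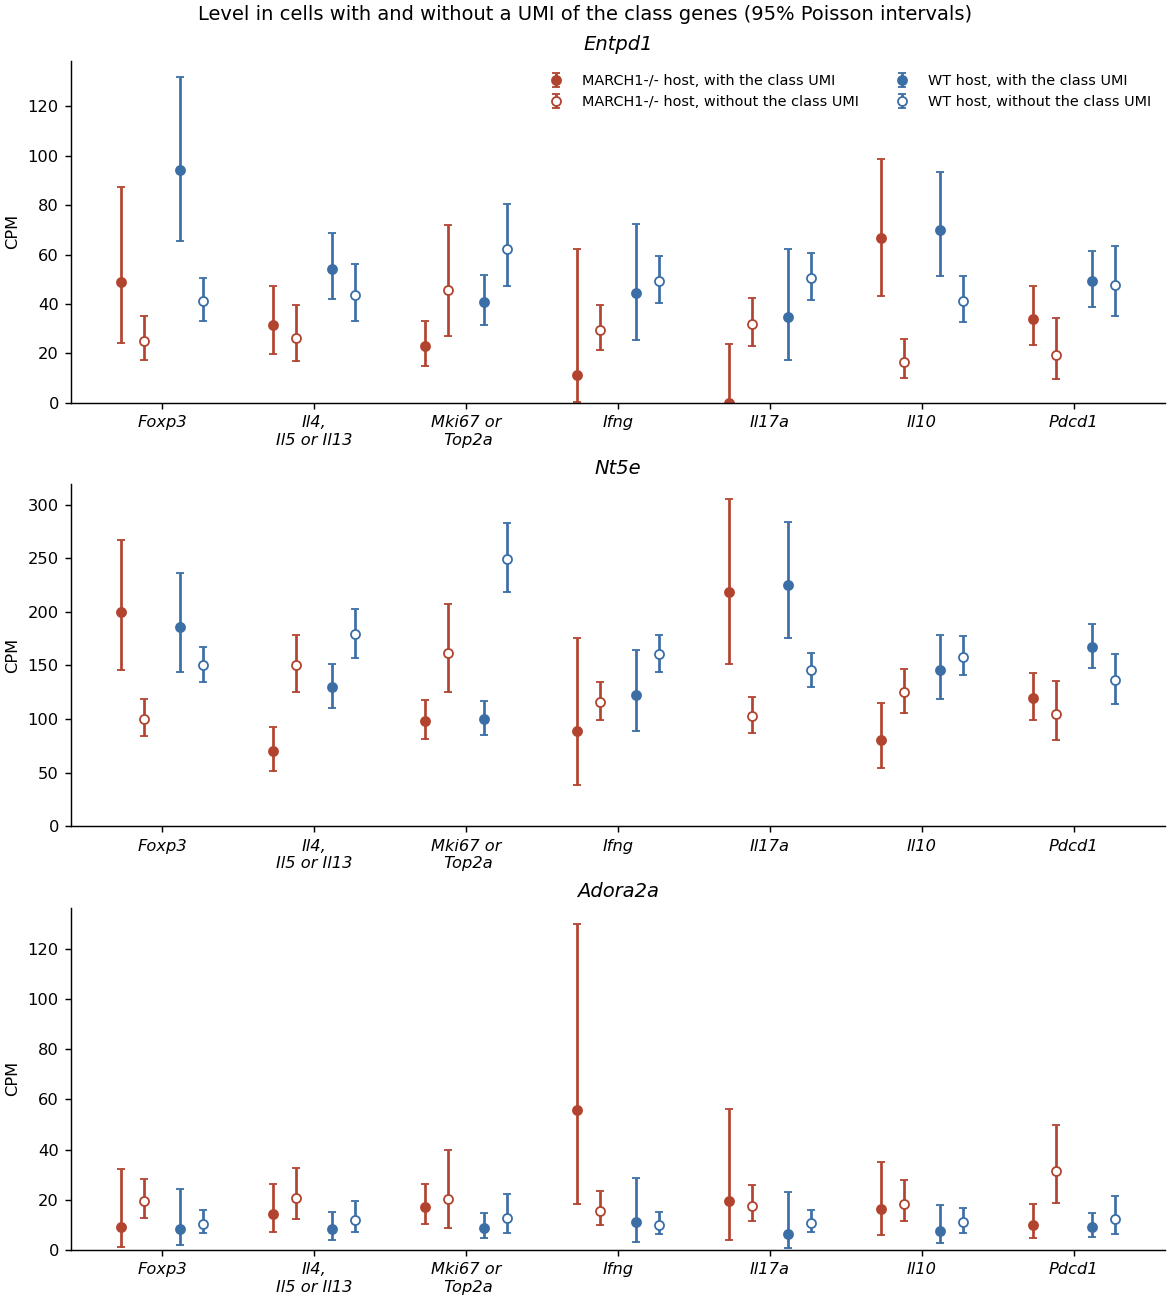
CPM of Entpd1 (top), Nt5e (middle) and Adora2a (bottom) in cells with (filled) and without (open) a UMI of the genes that define each of 7 classes; red is the MARCH1-/- host, blue the WT host, and error bars are 95% Poisson intervals. Nt5e stands at 219 CPM in Il17a-positive cells of the MARCH1-/- host and 225 CPM in those of the WT host, above the cells without them.

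The wider adenosine and purine pathway was followed through a list of 56 genes, of which 9 had 0 UMIs in both libraries and 42 had at least 10 UMIs in all. Of these 42, 30 were higher and 12 lower in the MARCH1-/- host library, with a median log2 ratio of 0.37. Of all 9929 genes with at least 10 UMIs, 65.8% were higher, with a median of 0.25, so Entpd1 and Nt5e stood on the less common side. Among other enzymes at the cell surface, Entpd2, Entpd3, Entpd8, Enpp3 and Alpl had 0 UMIs. Enpp1 had 12 and 9 UMIs. Acpp, an acid phosphatase that can also act on AMP, had 8 UMIs in the MARCH1-/- host and 39 UMIs in the WT host, a log2 ratio of -1.58 (-2.89 to -0.46). Of the other adenosine receptors, Adora1 had 0 UMIs, Adora2b had 1 and 2, and Adora3 had 1 and 1.
Of the genes that remove or carry adenosine, 7 of 7 with at least 10 UMIs were higher in the MARCH1-/- host library, with a median of 0.41. Only Adk and Pnp among them had an interval that excluded no difference. Adk, which returns adenosine to AMP inside the cell, was at 89.5 CPM in the MARCH1-/- host and 37.7 CPM in the WT host, a log2 ratio of 1.25 (0.86 to 1.63). Pnp, which cleaves inosine, was at 86.3 CPM and 50.6 CPM, a log2 ratio of 0.77 (0.41 to 1.13). Ada, which turns adenosine into inosine, had 6 and 9 UMIs. The adenosine transporter Slc29a1 was at 43.2 CPM and 35.8 CPM.
Entpd5, a family member of the endoplasmic reticulum, was at 21.6 CPM in the MARCH1-/- host and 7.78 CPM in the WT host, a log2 ratio of 1.47 (0.63 to 2.35). Among receptors and channels for ATP, P2rx4 had a log2 ratio of 0.87 (0.23 to 1.52) and Panx1, a channel that lets ATP out, one of 0.74 (0.14 to 1.33). Downstream of the A2A receptor, Gnas, the stimulatory G protein subunit, was at 649.9 CPM and 387 CPM, a log2 ratio of 0.75 (0.62 to 0.88). Of the 15 measured genes of this cAMP arm, 9 were higher and 6 lower, with a median of 0.16. Crem, a cAMP-responsive factor, had a log2 ratio of -0.29 (-0.66 to 0.08) and Pde4b, which breaks cAMP down, one of -0.22 (-0.56 to 0.12).

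**Figure D5:**
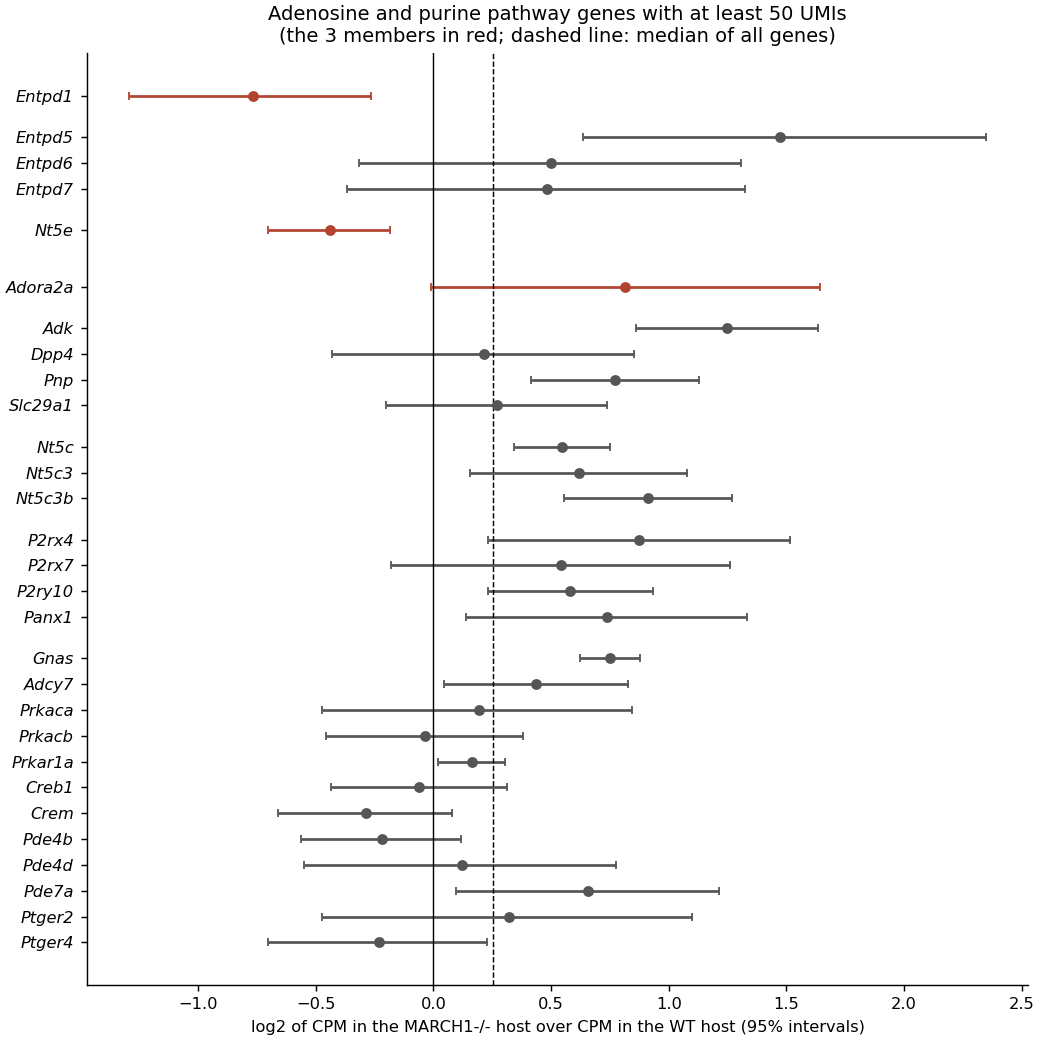
Log2 ratio of CPM in the MARCH1-/- host over CPM in the WT host (x axis) for the genes of the adenosine and purine pathway with at least 50 UMIs (1 line each, grouped by role), with 95% intervals; the 3 members are red and the dashed line is the median of all genes, 0.25. Entpd1 at -0.77 and Nt5e at -0.44 lie left of 0, Adora2a at 0.81 and Adk at 1.25 right of it.

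Between Foxp3-positive and other cells, 20 of 36 pathway genes were higher in the MARCH1-/- host (median 0.15) and 17 of 39 in the WT host (median -0.30). Without the 3 members the counts were 18 of 33 and 15 of 36. Of all genes with at least 10 UMIs, 49.6% and 49.5% were higher. P2rx7, the ATP-gated receptor, had 0 UMIs in Foxp3-positive and 33 in other cells of the MARCH1-/- host, and 1 and 36 UMIs in those of the WT host. Panx1 was at 31.0 CPM in Foxp3-positive and 31.9 CPM in other cells of the MARCH1-/- host, and at 47.1 CPM and 14.5 CPM in those of the WT host, where the log2 ratio was 1.70 (0.76 to 2.59). Gnas had log2 ratios of -0.52 (-0.82 to -0.23) in the MARCH1-/- host and 0.15 (-0.11 to 0.40) in the WT host.

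The genes most like each member were found by the mean over both libraries of the correlation across cells, after each count was set against the depth of its cell. For Entpd1, over 2897 genes, they were Nkg7 (r 0.44 in the MARCH1-/- host and 0.22 in the WT host), Arl5a, Neb, Ctsb and Il2rg. Il10 stood in place 7 of this order, at 0.40 and 0.11. For Nt5e, over 2896 genes, they were Btg1 (r 0.39 and 0.35), Skil, Atp2b4, Malat1 and Sla. For Adora2a they were Tbc1d4 (r 0.26 and 0.14), Ppp2r5c, Sesn3, Cyfip1 and Tiam1. Entpd1 and Nt5e had r 0.21 with each other in the MARCH1-/- host and 0.14 in the WT host. In counts this sparse such values only describe the libraries, since cells of a library share its preparation. Setting counts against depth in this way takes them to rise in proportion to it. Those of Nt5e did not in either library, nor did those of Entpd1 in the MARCH1-/- host and of Adora2a in the WT host. The part of depth in these correlations was not tested.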

How the data were processed

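The deposited tables give unnormalized UMI counts for all barcodes, before any call of cells. They were made with the 10x Chromium 3' kit v3.1, per the labels' protocols. The submitters' processing notes name Cell Ranger 3.1.0 and mm10; the headers of the matrices name version 4. No source used here gives the gene annotation. From these deposited counts, UMIs were summed over cells and scaled to CPM. Because 1 library stands for each group, cells were not treated as replicates and no p-value was computed. Intervals, at 95%, are exact Poisson for CPM, Clopper-Pearson for shares of cells and, for log2 ratios, exact binomial given the summed UMIs; for differences of shares they combine those of both shares. They leave out variation between animals, preparations and cells, and each UMI is taken as an independent draw.

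Genes at 0 on one side entered medians and counts at a floor of 3 counts. A gene was called past a fold at more than 1.5-fold, with at least 50 UMIs between hosts and 20 within a library. Thinning used 1 seeded draw to 1000 UMIs. Likeness is Pearson's r of analytic residuals (theta 100), among genes with at least 200 UMIs and seen in at least 10% of cells. Named genes are the members, Foxp3, members of the pathway and regulatory T cell lists, and the 5 genes most like each member; Il10 was named among them after its place was seen. Doublets were kept: Scrublet (scanpy 1.11.5, expected rate 0.05) marked 5 cells in each library. The fold, ratio and background code was tested on simulated data. The sources gave no annotation of cell types. Tools were scipy 1.17.1, numpy 2.4.6 and pandas 2.3.3 under Python 3.11.15, with matplotlib 3.10.9 for figures. The alternatives were stricter, looser and doublet-free cells, thinning, equal weights for cells, cells without cycling or other-type markers, no top cell, centring on the median gene, other Foxp3 classes, and depth classes. The members and lists were chosen with earlier results of these data known. Depth classes for host and class ratios, and all alternatives for the class ratios, were added after the data were seen. Promoters came from RefSeq, matched by symbol for Entpd1 and Nt5e. Some genes and 1 class of cells are not reported here, and the type 17 class was taken from Il17a alone.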

Additional observations from a re-analysis of the deposited data

Results flagged for a closer look

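Nt5e had host ratios of opposite sign in a pair of classes, and the difference between them was not tested. In Foxp3-positive cells its log2 ratio, MARCH1-/- host over WT, was 0.10 (-0.48 to 0.67), an interval that included no difference. In Foxp3-negative cells it was -0.59 (-0.89 to -0.29). There the MARCH1-/- host cells were deeper, at a median of 8345 against 5925.5 UMIs. In Foxp3-positive cells the medians were 6400.5 and 6596.5 UMIs, and the part of depth was not tested.

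Barcodes that passed the limits on UMIs and genes but held more than 10% mitochondrial UMIs numbered 25 in the MARCH1-/- host library and 72 in the WT host library and are in no comparison above. They held Nt5e at 335 CPM (161 to 617, from 10 UMIs) in the MARCH1-/- host and 361 CPM (240.2 to 522, from 28 UMIs) in the WT host, against 114 CPM and 155 CPM in the cells. Entpd1 was at 90.4 CPM (36.3 to 186, from 7 UMIs) in those of the WT host, against 48.6 CPM in the cells.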

How the results depend on the processing

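For 23 results, 253 values were computed under alternatives: 215 stayed inside the interval of the reported value (for counts of genes, within 1.5-fold), 35 left it and 3 turned a direction whose interval had excluded no difference. The causes were not tested. No paired analysis was possible because each group has 1 library and the labels carry no replicate numbers. For Adora2a, 4 Foxp3 ratios could not be computed, since the Foxp3-positive cells left held 0 of its UMIs. All values below are log2 ratios unless they are said to be counts.

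After thinning to 1000 UMIs, the Foxp3 ratio of Entpd1 in the MARCH1-/- host was 2.46, the host ratio of Adora2a was 2.71 and its Foxp3 ratio in the WT host was 2.75. The Il10 ratio of Entpd1 was then 3.54 in the MARCH1-/- host and 1.83 in the WT host, and the Il17a ratio of Nt5e was 0.26 in the MARCH1-/- host. For Nt5e in the WT host thinning gave 0.36 for Entpd1-positive over negative cells, -0.82 for Mki67 or Top2a and, turned in direction, 0.20 for the type 2 cytokines. With cells weighted equally, Nt5e had 1.72 for Foxp3 in the MARCH1-/- host and -0.97 for Mki67 or Top2a in the WT host.

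Without cells with Mki67 or Top2a, the Foxp3 ratios in the WT host were 1.99 for Entpd1 and 0.78 for Nt5e. Nt5e then had 0.29 in Entpd1-positive over negative cells of the WT host, and Entpd1 had 1.35 for Il10 in the WT host. Without cells with other-type markers the host ratio of Entpd1 was -0.18, and Nt5e in the MARCH1-/- host had 2.06 for Foxp3.

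Among cells above the median depth, the Foxp3 ratio of Entpd1 in the MARCH1-/- host was -1.79 and the Mki67 or Top2a ratio of Nt5e in the WT host was -0.82. Among cells at or below it, Entpd1 had -0.0896 between hosts, 2.16 for Foxp3 in the MARCH1-/- host and 1.38 for Il10 in the WT host. Nt5e in Entpd1-positive over negative cells then had 0.99 in the MARCH1-/- host and 0.42 in the WT host. Its Mki67 or Top2a ratio was 0.12 in the MARCH1-/- host, turned in direction, and -1.01 in the WT host, and its type 2 cytokine ratio was -0.41 in the MARCH1-/- host and 0.16, turned in direction, in the WT host.

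The count of genes higher by more than 1.5-fold in the MARCH1-/- host library was 1728. It was 357 after thinning, 912 without cells with Mki67 or Top2a, 854 relative to the median gene, 2760 with at least 10 UMIs, 1146 with at least 100 UMIs and 471 past 2-fold. The count of lower genes was 561, against 234 after thinning, 1020 relative to the median gene, 1166 with at least 10 UMIs and 190 past 2-fold.

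For results whose interval excluded no difference, 29 of 122 alternative intervals included it. Beside those given so far, these were, for Entpd1, the host ratio after thinning (-1.12), the Foxp3 ratio in the WT host after thinning (1.27) and among shallow cells (1.07), and its Il10 ratio there without cells with other-type markers (0.60) and among deep cells (0.59). For Nt5e they were the Foxp3 ratio in the MARCH1-/- host without cells with Mki67 or Top2a (0.81), and the Il17a ratio in the WT host after thinning (0.50) and among shallow cells (0.51). Its Mki67 or Top2a ratio in the MARCH1-/- host was -0.65 after thinning, -0.52 without cells with other-type markers and -0.52 among deep cells. Its type 2 cytokine ratio was -0.85 after thinning in the MARCH1-/- host, and in the WT host -0.35 without cells with Mki67 or Top2a and -0.19 among deep cells.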
